A study of Mus musculus with 3 samples.

Results

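The genes Nrl, Crx, Nr2e3, Neurod1 and Neurod4, grouped here as photoreceptor fate transcription factors, were followed in wild-type mouse retina at postnatal day 7. They were taken by gene symbol: every probe set whose single annotated gene was a member. Of the 5 genes sought, 4 were measured, each by 1 probe set, out of 8251 genes in all. These were Nrl (probe set 102612_at, gene ID 18185), Crx (99900_at, 12951), Neurod1 (92717_at, 18012) and Neurod4 (94123_at, 11923). For Nr2e3 no probe set carried its symbol alone, so its level was not analysed here and only its promoter is described. The data were 3 Affymetrix MG-U74Av2 arrays, which read a transcript as the fluorescence of short oligonucleotide probes. Each array carried total RNA of neural retinas pooled from 3 to 4 mice that were wild-type littermates of Rp1-/- animals, in a mixed 129/SvEv and C57BL/6 background, collected between 1 and 2 pm. The labels hold 1 group, and the only comparison it allows is of the 3 pools, called pool 1, pool 2 and pool 3, with each other. Nothing in the labels says that the pools came from separate litters, so p-values measure only how far these samples spread, and that spread may be technical.

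Photoreceptors are made from dividing progenitors in steps that some of these factors control. Crx is a homeodomain protein, switched on in postmitotic photoreceptor precursors downstream of Otx2, and it binds the promoters of many rod and cone genes. Nrl is a basic leucine zipper protein of the Maf family that directs a precursor to the rod fate, and retinas without it form cone-like cells in place of rods. Nr2e3, an orphan nuclear receptor that depends on Nrl, keeps cone genes off in rods. Neurod1 and Neurod4 are basic helix-loop-helix (bHLH) proteins, which bind E-boxes together with broadly expressed E proteins. Neurod1 acts in photoreceptor survival and in amacrine cells, and Neurod4 (also called Math3) acts with other bHLH factors in bipolar and amacrine cells.

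The promoter windows of Nrl, Crx, Neurod1 and Neurod4, though not that of Nr2e3, hold short sequence cores of the kinds that such factors read, and those of Nrl, Crx and Neurod1 are printed to show them. RefSeq promoter windows of assembly GRCm38.p6 run from 250 bases before to 50 bases after an annotated start site, and all 5 members had at least 1. Searched on both strands were TAATCC (the core of Crx and Otx sites), TGCTGA (a core of Maf sites), CAGATG (a form of the E-box) and AAGTCA (a core of Nr2e3 sites). No core is contained in another. The share of all genes with at least 1 of the 4 cores was not counted, so holding a core is not read as a trait of these genes. In the sequences, written 5′ to 3′ on the strand of the gene, capitals mark a match to any of these cores or to its reverse complement. The windows lie on the minus strand at chr14:55524203-55524502 (Nrl), chr7:15879906-15880205 (Crx) and chr2:79456587-79456886 (Neurod1).
Nrl promoter: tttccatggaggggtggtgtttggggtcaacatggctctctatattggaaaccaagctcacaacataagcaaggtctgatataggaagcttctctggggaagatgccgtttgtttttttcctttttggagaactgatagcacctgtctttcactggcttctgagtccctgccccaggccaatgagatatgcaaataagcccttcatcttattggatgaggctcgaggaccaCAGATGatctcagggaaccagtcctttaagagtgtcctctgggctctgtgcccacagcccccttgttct
Crx promoter: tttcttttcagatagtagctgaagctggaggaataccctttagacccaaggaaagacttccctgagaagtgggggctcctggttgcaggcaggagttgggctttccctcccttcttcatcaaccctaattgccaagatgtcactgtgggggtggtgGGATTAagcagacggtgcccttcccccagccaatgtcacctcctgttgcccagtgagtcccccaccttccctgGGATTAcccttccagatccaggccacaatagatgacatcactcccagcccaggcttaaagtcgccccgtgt
Neurod1 promoter: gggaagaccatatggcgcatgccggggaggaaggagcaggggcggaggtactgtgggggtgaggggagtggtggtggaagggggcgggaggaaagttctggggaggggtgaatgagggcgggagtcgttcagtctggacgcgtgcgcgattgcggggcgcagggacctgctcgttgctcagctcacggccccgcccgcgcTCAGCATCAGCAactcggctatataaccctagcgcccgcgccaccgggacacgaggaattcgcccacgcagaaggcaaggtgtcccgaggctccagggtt

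The Crx window held the homeodomain core as GGATTA, its reverse complement, at 2 places that began at -94 and -21 from the start site. Of 27025 genes with a window, 8.14% held this core. This share and those below are of genes with at least 1 match, and genes with 2 matches were not counted apart. The Neurod1 window held the Maf core at 2 adjoining places, -50 and -44, both as the reverse complement TCAGCA. The Maf core was held by 21.7% of genes. The Nrl window had 1 match, CAGATG at -19, a core held by 19.2% of genes. Neurod4 has 2 windows in the table, at chr10:130280205-130280504 and chr10:130280089-130280388 on the minus strand. The first held the Maf core at -173 and -19 and AAGTCA at 11, and the second, which overlaps it, held again the later Maf core and the AAGTCA, the same bases counted from another start site (-135 and -106). AAGTCA was held by 17.0% of genes. The Nr2e3 window held none of the 4 cores, which says only that these letters are not in this window. A match describes the sequence and is not a site shown to be bound.

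**Figure D1:**
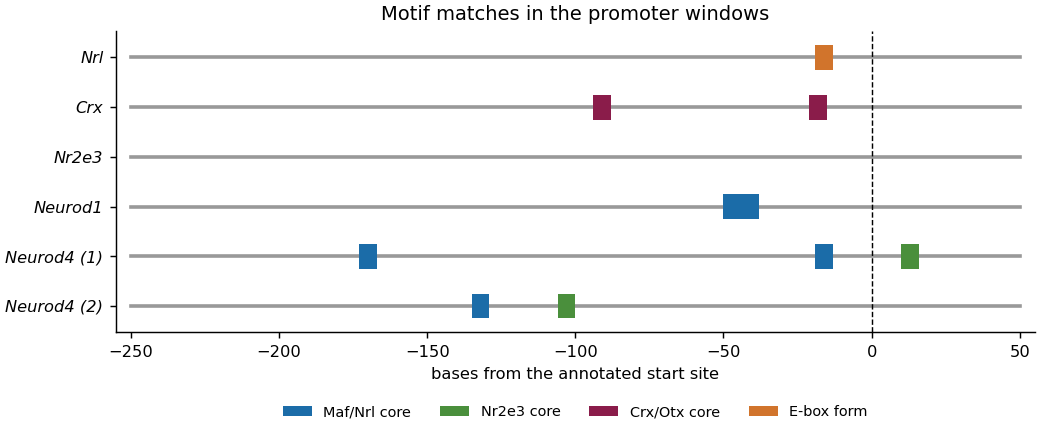
Matches to 4 sequence cores in the promoter windows of the 5 genes, by distance in bases from the annotated start site (dashed line); grey lines are the windows and coloured blocks the matches, on either strand. Crx alone among them held the homeodomain core, at 2 places, and the 2 matches of Neurod1 adjoin.

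Nrl, the rod determinant, had scaled intensities of 777, 617 and 487 in pools 1, 2 and 3, with a mean of 627 ± 145 (SD, n = 3 pools, as for each value given in this way). Pool 1 was the highest and pool 3 the lowest. All were above background, which was set by 59 measured genes of tissues unrelated to the retina, such as liver, pancreas, testis and skin, as their 90th percentile on each array (298, 273 and 309). The intensities were 2.60, 2.26 and 1.58 times this bar. Some of the 59 genes were still brighter than Nrl. These were Krt1 (686) and Krt10 (898) in pool 2, and Cel (626), Cela1 (695) and Lhb (704) in pool 3. In pool 1 none of them was. For Nrl, pool 1 stood 1.60-fold above pool 3. The values as deposited, before scaling, were 807.5, 566.5 and 507.2, with the same order.

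Crx, the homeodomain factor of rods and cones, was at 5536, 8066 and 7203, with a mean of 6935 ± 1286. Pool 1 was the low one, and pools 2 and 3 stood 1.46-fold and 1.30-fold above it. These intensities were 18.6, 29.6 and 23.3 times the bar. As deposited they were 5754, 7405.1 and 7508.7, so that pool 1 stayed lowest while pools 2 and 3 changed order.

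Neurod1 was at 6944, 5129 and 7327, with a mean of 6467 ± 1174. Here pool 2 was the low one, and pools 1 and 3 stood 1.35-fold and 1.43-fold above it. The intensities were 23.3, 18.8 and 23.7 times the bar. The deposited values of 7217.6, 4709 and 7638.9 had the same order.

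Neurod4 was at 4849, 5362 and 5052, with a mean of 5088 ± 258. Its highest pool was 1.11-fold above its lowest, and as deposited the values were 5040.4, 4922.7 and 5267. The intensities were 16.3, 19.7 and 16.4 times the bar. All 4 measured members were thus above the bar in all 3 pools, against 45.2% of all genes. Intensities of different probe sets depend on the probes as well as on the RNA, so no order of levels between the 4 genes is given. In whole retina, fewer cells of a type and less RNA per cell cannot be told apart.

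**Figure D2:**
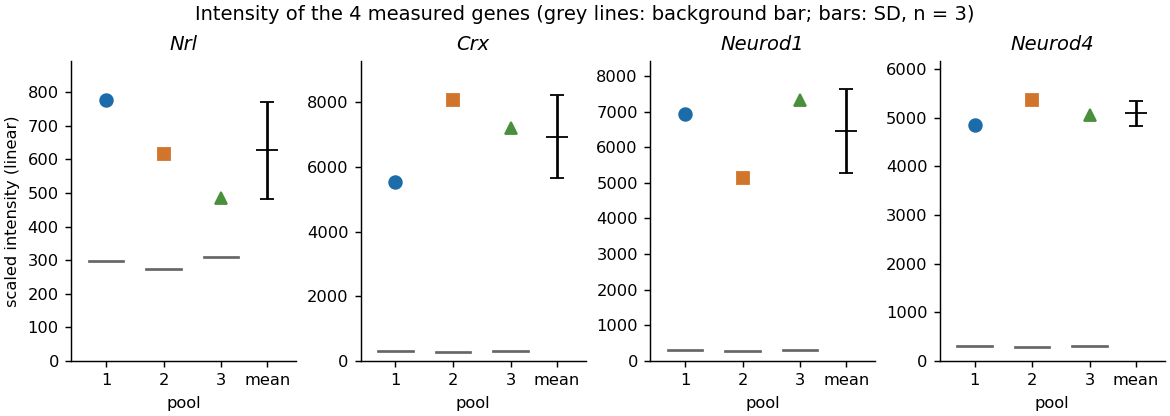
Scaled intensity (linear axis from 0) of Nrl, Crx, Neurod1 and Neurod4 in each of the 3 pools, with the mean and SD at the right of each panel (n = 3) and the background bar of each array as a grey line. Nrl was highest in pool 1 (777), Crx was lowest in pool 1 (5536), Neurod1 was lowest in pool 2 (5129), and the Neurod4 points lie between 4849 and 5362.

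None of the 4 passed a test for more spread between the pools than other probe sets of its brightness. Spread was tested with limma over the brighter 50% of probe sets, 6211 in number, and 83 of them (1.34%) had excess spread at an adjusted p below 0.05. The limma adjusted p was 0.992 for Nrl, Crx and Neurod1 and 0.999 for Neurod4. The unadjusted p-values of the same limma test were 0.290, 0.379, 0.381 and 0.935. Thus 0 of 4 were below 0.05 without adjustment, beside 420 of the 6211 tested. With so few genes that count carries little information. The SD over the pools on the log2 scale was 0.34 for Nrl, 0.28 for Crx, 0.28 for Neurod1 and 0.07 for Neurod4. The spread that limma estimated for probe sets of their brightness was 0.30 for Nrl and 0.28 for each of the others. At that spread, 95% of differences between 2 pools lie within 1.79-fold for Nrl. For Crx, Neurod1 and Neurod4 these limits are 1.72-fold, 1.72-fold and 1.71-fold. Smaller differences cannot be told from the usual spread between single pools. The limits are not those of the limma test, which larger differences also failed. The cone gene Gnb3, with a log2 range of 0.999, had a limma adjusted p of 0.641. That no test passed does not show that the pools held equal amounts.

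Their ranges lay in the body of the distribution, with Neurod4 in its narrow end. The highest minus the lowest log2 value was 0.68 for Nrl, 0.54 for Crx, 0.51 for Neurod1 and 0.14 for Neurod4. Of the tested probe sets, 27.2% had a larger range than Nrl, 42.2% a larger one than Crx and 46.1% a larger one than Neurod1. For Neurod4 this share was 94.1%. The median range of the tested probe sets was 0.49.

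**Figure D3:**
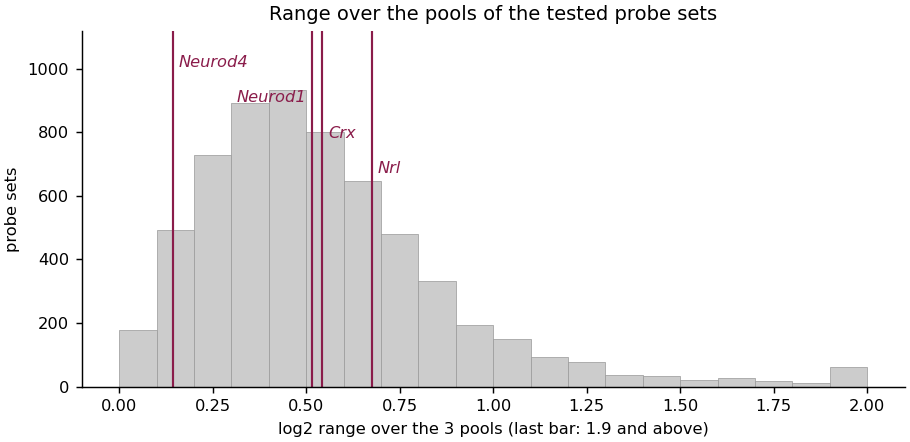
Number of tested probe sets (vertical axis) by their log2 range over the 3 pools (horizontal axis, in steps of 0.1), with vertical lines at the ranges of the 4 genes. Neurod4 (0.14) lies at the narrow end, and Neurod1 (0.51), Crx (0.54) and Nrl (0.68) lie near or above the median of 0.49.

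The order of the pools was not the same for all 4 genes, but none of them had excess spread, so no pattern is established for any. For Crx, Neurod1 and Neurod4 the order also changed with how the arrays were scaled. The main scaling equalised the array medians, and under it the 3732 genes above the bar in all pools deviated on the log2 scale by a median of -0.04, 0.13 and -0.09. With the values as deposited these medians were 0.02, 0.01 and -0.02. Relative to the first set, Nrl stood at 0.38, -0.12 and -0.25, Crx at -0.27, 0.11 and 0.16, Neurod1 at 0.16, -0.45 and 0.28, and Neurod4 at -0.03, -0.05 and 0.08. Nrl was highest in pool 1 and lowest in pool 3 under median scaling, as deposited and after quantile normalisation. Crx was lowest in pool 1 and Neurod1 lowest in pool 2 under the same 3. Crx was highest in pool 2 under median scaling and in pool 3 under the others. Neurod1 was highest in pool 3, but in pool 1 after quantile normalisation. Neurod4 had its lowest value in pool 1 under median scaling and in pool 2 under the others, so no direction is given for it. The range of Neurod1 was 0.81 after quantile normalisation, where the unadjusted p of the limma test was 0.0218 and the adjusted p 0.767. Over its 11 alternatives the limma adjusted p of Neurod1 ran from 0.266 to 0.997.

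**Figure D4:**
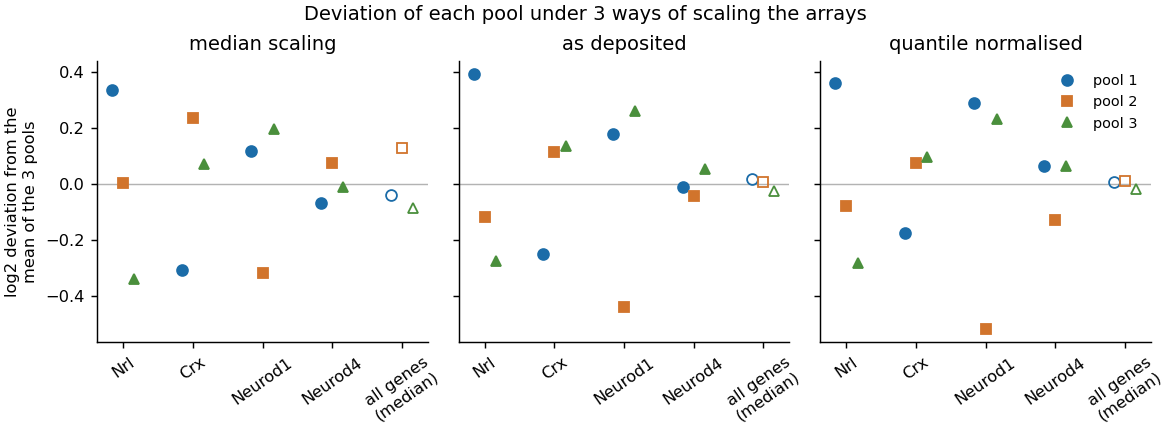
Log2 deviation of each pool from the mean of the 3 pools (vertical axis) for the 4 genes, with the arrays median-scaled, as deposited and quantile normalised; open symbols give the median of all genes above the bar. Nrl in pool 1, Crx in pool 1 and Neurod1 in pool 2 keep their side in the 3 panels, while Neurod4 stays near 0 and changes order.

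Pool 1, where Nrl was highest and Crx lowest, also stood apart in other values. All 6 lens genes above the bar, of 9 measured, were lowest there, and the summed intensity of the 9 was 26799 in pool 1 against 126923 and 136385 in pools 2 and 3, with no member at 0. All 8 lens genes tested (Cryaa, Cryba1, Crybb2, Crygb, Crygc and Crygs, which encode crystallins, with the water channel gene Mip and the filament gene Bfsp1) had excess spread in the limma test, and none did without pool 1 (limma adjusted p 0.983 or higher). The calls of Cryba1, Crybb2, Mip and Bfsp1 were also lost as deposited and after quantile normalisation, those of Cryaa, Cryba1, Crygb and Bfsp1 without pool 3 (limma adjusted p = 0.332, 0.767, 0.0756 and 0.166), and those of Mip and Bfsp1 without pool 2 (0.639 and 0.346). With no filter on dim probe sets all 8 were lost (limma adjusted p = 0.266 for each), and without the robust option Cryba1 and Mip were (0.0850 and 0.105). A second probe set of Crybb2 (861, 735 and 789) was highest in pool 1 and had no excess spread (limma adjusted p = 0.994). That of Crygb (328, 391 and 1106) had excess spread (limma adjusted p = 0.0139), was lowest in pool 1 and stood out in pool 3. The 3' to 5' signal ratio of Actb, a measure of RNA length and labelling, was 1.81 in pool 1 against 1.27 and 1.30, and that of Gapdh 0.874 against 0.788 and 0.812. The part of these differences in the Nrl and Crx values was not tested. Of 6 measured pigment epithelium genes, 1 (16.7%, beside 45.2% of all genes) was above the bar in all pools, the melanin gene Dct at 384 ± 76.6.

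Genes with the same pattern over the 3 pools were many, as 3 values carry little information. Likeness was the largest difference in log2 deviation on any of the 3 pools, over 3731 other genes above the bar. Within 0.1 of Nrl in every pool lay 95 genes (2.55%), the nearest being Rbbp9 (548, 424 and 338), Gkap1 (568, 441 and 355) and Tbl1xr1 (874, 709 and 564). Crx had 205 such genes (5.49%), with Mfge8 (4496, 6552 and 5768), Nudt5 and Mrps12 nearest. Neurod1 had 48 (1.29%), with Fbxo9 (1163, 869 and 1244), Vps51 and Dnajc15 nearest. Neurod4 had 437 (11.7%), with Ptpa (1801, 1990 and 1876), Gabpb1 and Myt1 nearest. The 3 genes nearest to Nrl, Crx, Neurod1 and Neurod4 differed from them by at most 0.0244, 0.0158, 0.0171 and 0.00675.

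Of 21 listed transcription factors of photoreceptors, 17 were measured and 9 of these (52.9%) were above the bar in all pools, a share near the 45.2% of all genes. Nrl, Crx and Neurod1 are among the 9. Prdm1, which holds precursors to the photoreceptor against the bipolar fate, was at 1806, 1711 and 1585. Rax, a homeodomain factor of eye field and photoreceptors, was at 1784, 2607 and 1491. Rxra, a retinoid receptor gene, was at 388, 774 and 650, and like Crx was lowest in pool 1. Mef2d, a cofactor of Crx at photoreceptor genes, was at 6610, 8390 and 7091, also lowest in pool 1. A second probe set of Rxra (245, 343 and 590) was not above the bar in every pool, and a second one of Rora (826, 839 and 617) was, though the chosen one was not. None of the 12 tested genes of this list had excess spread (limma adjusted p 0.80 or higher). The cone-side receptor genes Thrb (206, 172 and 60.1) and Rxrg (176, 211 and 221) were below the bar in every pool, which does not show that they were silent.

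Among the bHLH relatives of Neurod1 and Neurod4, Neurog2 was above the bar in every pool, but barely in pool 2 (278 against 273). Off-tissue genes such as Krt10 (898) and Pomc (312) were brighter there. Of 14 listed genes 9 were measured and 3 (33.3%, beside 45.2% of all genes) were above the bar in all pools, namely Neurod1, Neurod4 and Neurog2, a proneural factor of progenitors, at 407, 278 and 350. Neurog2, like Neurod1, was lowest in pool 2. Neurod2 was above the bar in 2 of 3 pools, at 103, 379 and 337 (limma adjusted p = 0.102). Neurod6, Neurog1, Neurog3, Atoh1 and Atoh7 were below the bar in every pool. Among the partners and antagonists of bHLH factors, 8 of 11 measured genes (72.7%) were above the bar. The E protein genes Tcf4 (2159, 3155 and 3315) and Tcf12 (2419, 2649 and 2289) were among them, as were Id2 (689, 694 and 643) and Id3 (501, 694 and 493), which encode inhibitors that bind E proteins. None of these 11 had excess spread (limma adjusted p 0.992 or higher). In the Maf family of Nrl, 2 of 5 measured genes (40%) were above the bar, Nrl and the small Maf gene Mafg (435, 469 and 522). Maf, Maff and Mafk were below it in every pool.

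Rod genes known as targets of Nrl, Crx or Nr2e3 had signal for most measured members. Of 30 listed, 18 were measured and 14 (77.8%) were above the bar in all pools, where 45.2% of all genes were. Sag, the rod arrestin gene, was at 12305, 15211 and 13639. Gnb1, a transducin subunit gene, was at 10928, 14984 and 5848 (limma adjusted p = 0.159), while another of its 3 probe sets, at 3239, 3783 and 934, had excess spread (limma adjusted p = 9.67e-05). The phosphodiesterase subunit genes Pde6b and Pde6g were at 5400, 7155 and 5523 and at 6604, 8277 and 7074. Pool 2 was the highest for 11 of the 14 genes (78.6%), beside 56.7% of all genes above the bar. As deposited these shares were 64.3% and 34.9%, and after quantile normalisation 42.9% and 34.1%. The median deviation of the rod list, on the log2 scale, was -0.15, 0.19 and -0.11 over the pools in order, beside -0.04, 0.13 and -0.09 over all genes above the bar. Nrl itself was highest in pool 1. None of the 14 rod genes was highest there under median scaling or as deposited, beside 25.8% and 38% of all genes above the bar. After quantile normalisation 5 were (35.7%, beside 36.9%). Nrl had no excess spread, and whether the rod genes and Nrl differed over the pools was not tested.

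Of the 17 rod genes tested, 2 had excess spread, beside 50 of all 4698 genes tested by their chosen probe set (1.34% of all probe sets tested). Gnat1, the rod transducin gene, was at 219, 699 and 680 and below the bar in pool 1 (limma adjusted p = 0.0162). Prph2, a disc rim protein gene, was at 1261, 981 and 3901, with pool 3 high (limma adjusted p = 2.91e-04). The Gnat1 call was lost without pool 1, pool 2 or pool 3 (limma adjusted p = 0.996, 0.672 and 0.0575), with no scaling (0.543), after quantile normalisation (0.394), with no filter (0.266) and without the robust option (0.137). The Prph2 call was lost without pool 2 or pool 3 (limma adjusted p = 0.202 and 0.996), with no scaling (0.0865), after quantile normalisation (0.0763) and with no filter (0.266). A second probe set of Rom1, a partner of Prph2, also had excess spread (2128, 686 and 819, limma adjusted p = 0.00970), unlike the chosen one (2678, 3239 and 2613, limma adjusted p = 0.992). Among cone genes 4 of 6 measured (66.7%, beside 45.2% of all genes) were above the bar. They were the short-wavelength opsin gene Opn1sw (1258, 2014 and 1674) and the cone transducin genes Gnat2 (931, 868 and 909) and Gngt2 (626, 931 and 627). With them was Gnb3 (4122, 6922 and 3463), a transducin subunit gene of cones and bipolar cells. None of these 4 had excess spread.

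**Figure D5:**
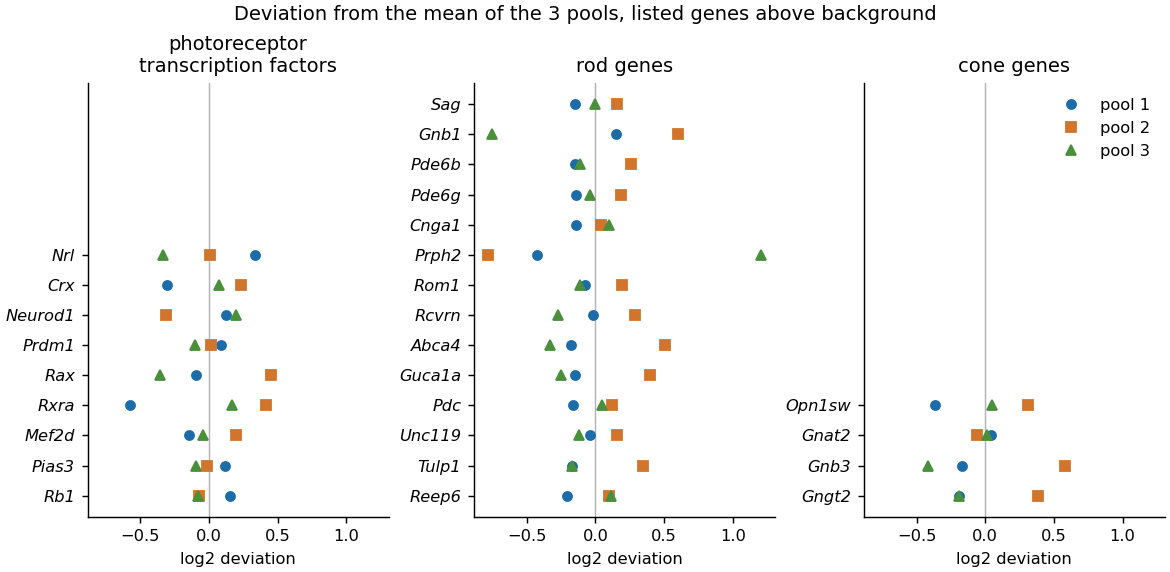
Log2 deviation from the mean of the 3 pools (horizontal axis) of listed genes above the bar in all pools: 9 photoreceptor transcription factors, 14 rod genes and 4 cone genes, with a symbol for each pool. Pool 2 is highest for 11 of the 14 rod genes, Nrl is highest in pool 1, and Prph2 stands out in pool 3.

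The promoter windows of the rod genes were searched for the same 4 cores, with no test of the shares. Of the 22 listed rod genes with a window, 11 (50%) held TAATCC or its reverse complement, beside 8.14% of all genes with a window. So did 5 of 7 pigment epithelium genes (71.4%) and 4 of 10 bipolar cell genes (40%), so the core was not particular to the rod list. In the other lists the share ran from 0% (Müller glia genes among them) to 25% (ganglion cell genes). The Maf core was held by 7 of the 22 (31.8%) beside 21.7%, CAGATG by 3 (13.6%) beside 19.2%, and AAGTCA by 1 (4.55%) beside 17.0%. For the Maf core the other lists ran from 12.5% (E protein, Id and Hes genes) to 66.7% (lens genes). Sag, Rbp3, Unc119 and Aipl1 held both the homeodomain and the Maf core, as 1.88% of all genes did. The list was drawn up from genes known as targets of these factors, so its motif content is not independent evidence. Of the 11 rod genes with a window that were above the bar, 5 held the homeodomain core: Sag, Cnga1, Abca4, Guca1a and Unc119. Among the 6 cone genes with a window 1 held it, Gnat2. The stretches around the core nearest the start site are printed for these 6, as the listed rod and cone genes above the bar with the core (Gucy2e also held it but was not above the bar in every pool), 5′ to 3′ on the strand of the gene and with the core in capitals (GRCm38.p6).
Sag, chr1:87803576-87803615, plus strand: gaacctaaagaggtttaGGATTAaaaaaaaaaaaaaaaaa
Cnga1, chr5:72642958-72642997, minus strand: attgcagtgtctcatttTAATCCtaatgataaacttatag
Abca4, chr3:122044385-122044424, plus strand: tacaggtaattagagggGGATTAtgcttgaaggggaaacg
Guca1a, chr17:47400641-47400680, minus strand: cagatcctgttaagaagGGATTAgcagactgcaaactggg
Unc119, chr11:78345449-78345488, plus strand: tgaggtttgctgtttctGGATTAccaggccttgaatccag
Gnat2, chr3:108093030-108093069, plus strand: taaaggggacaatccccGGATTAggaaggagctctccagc

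In these 6 genes the core began at -87 (Sag), -228 (Cnga1), -58 (Abca4), -57 (Guca1a), -118 (Unc119) and -19 (Gnat2). It stood as GGATTA in 5 of the 6 and as TAATCC in Cnga1, and the share of each orientation over all genes was not counted. Abca4, a disc membrane transporter gene, was at 1191, 1907 and 1069. Guca1a, which encodes a guanylate cyclase activator, was at 1061, 1552 and 990. Unc119, a photoreceptor lipid-binding protein gene, was at 7799, 8933 and 7371, and Cnga1, the rod cyclic nucleotide-gated channel gene, at 360, 407 and 425. Of the 5 rod genes, Sag and Cnga1 were lowest in pool 1, as Crx was, and Sag had the order of Crx over the pools under median scaling. Of all genes above the bar, 37.3% were lowest in pool 1. None of the 5 had excess spread, so no link of their order to Crx is read from it. Abca4, Guca1a and Unc119 were highest in pool 2 and lowest in pool 3.

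Lists for other retinal cells, in some of which Neurod1 and Neurod4 act, were read in the same way, beside 45.2% of all genes above the bar. Of 14 measured amacrine and horizontal cell genes 9 (64.3%) were above it, Neurod1 and Neurod4 included. Among the others of the 9 were Pax6 (2282 ± 310), the GABA synthesis gene Gad1 (2129 ± 200), the glycine transporter gene Slc6a9 (2250 ± 217) and Tfap2a (635 ± 201). Gad2, Calb1, Th, Lhx1 and Onecut1 were not above the bar in every pool. Of 6 measured bipolar genes 2 (33.3%) were above it, Neurod4 and Isl1 (1017 ± 217), and Trpm1, Prkca, Pcp2 and Grik1 were not. Of 6 measured genes each, 4 Müller glia genes (Rlbp1, Glul, Car2 and Dkk3) and 6 ganglion cell genes (Isl1, Thy1, Nefl, Nefm, Sncg and Gap43) were above the bar. The Müller glia genes Vim and Aqp4 were below it in every pool. None of the genes tested from these 4 lists had excess spread in the limma test by the chosen probe set; a second probe set of Pcp2 did (627, 813 and 255, limma adjusted p = 0.0412). Which cells gave the Neurod1 and Neurod4 signal was not measured in these whole-retina pools.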

How the data were processed

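Values were those of 3 arrays, 1 per pool. The intensity per probe set was used as deposited by the authors, on a linear scale and already scaled per array (mean without the lowest and highest 2% near 500.2 on each). The software that made it is not given in the sources used here. Of 12488 probe sets 66 controls were left out. Of the other 12422, 10833 had 1 gene in the platform annotation, 396 had several and 1193 were unnamed here. For 10817, RefSeq (GRCm38.p6) gave the symbol by gene ID.

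Each array was scaled to a common median, the mean over arrays (factors 0.962, 1.09 and 0.959). Before log2, values were floored at the 20th percentile (42.2). A listed gene was read by 1 probe set, without a letter suffix before any other, then the brightest. The background bar, the 90th percentile of 59 measured off-tissue genes, was passed in all pools by 3 of them (Cel, Lhb and Krt10).

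Spread was tested in limma 3.58.1 (R 4.3.3) on the brighter 50% of probe sets: the variance over the arrays (2 degrees of freedom) against squeezeVar's robust, trended prior (279 degrees of freedom), upper tail, with Benjamini-Hochberg adjustment. The test was also run on simulated data, with normal noise of the same SD for every probe set. The changes added there were larger than the ranges of the members. That run therefore says nothing about calls at those ranges or about the effect of scaling. The members, the 12 gene lists and the tests were chosen with earlier results of these data known. Text names every member, the first 4 other genes of each list above the bar (in written order), listed genes with excess spread and the 3 genes nearest each member. Other names were chosen after their values were seen. Promoter sequences and their coordinates came from RefSeq, and the position of the array probes was not used here. Pairs of pools shared 11 or 12 equal deposited values, far too few for a repeated array.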

Additional observations from a re-analysis of the deposited data

How the results depend on the processing

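All alternatives were planned. The 4 members were above the bar in all pools under the 8 alternatives tried for it, and none had excess spread under any setting (Nrl 10 settings, the others 11 each; in the brightest 25% Nrl was not tested). Excess spread was called for 83 probe sets, but 6 with no scaling, 6 after quantile normalisation, 0 with no filter on dim probe sets (141 at an unadjusted limma p below 0.05), 27 in the brightest 25% and 38 without the robust option. It was 30, 9 and 23 without pools 1, 2 and 3. The cause of these moves was not tested.

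Leaving out each pool in turn gave log2 ranges from 0.33 to 0.68 for Nrl (0.34 without pool 1, 0.33 without pool 3), 0.16 to 0.54 for Crx (0.16 without pool 1), 0.078 to 0.51 for Neurod1 (0.078 without pool 2) and 0.059 to 0.14 for Neurod4 (0.086 without pool 1, 0.059 without pool 2). After quantile normalisation the range of Neurod1 was 0.81.

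With no scaling and after quantile normalisation, the median log2 deviation in pool 2 moved to -0.11 and -0.078 for photoreceptor transcription factors, -0.023 and -0.039 for E protein, Id and Hes genes, -0.044 and -0.13 for amacrine and horizontal cell genes and 0.0073 and 0.0097 for all genes. After quantile normalisation it was -0.0074 for Müller glia genes in pool 2 and 0.064 for amacrine and horizontal cell genes in pool 1. With a gene's probe sets averaged, photoreceptor transcription factors were at -0.10 in pool 1 and 0.037 in pool 3. With the bar at the 75th percentile 4 bipolar and 2 pigment epithelium genes were above it, and 4 bipolar genes with the bar at the array's median. No paired analysis was possible because the labels hold 1 group. The 3 arrays limit the precision of each value, and for Nrl the signal was within 3 times the bar in every pool.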
